A study of Mus musculus with 18 samples.

Results

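The response described here is that of L929 cells to transfected DNA when their aminotransferases were already inhibited, HT-DNA+AOA compared with AOA alone. Its members are the 6 libraries that the sample labels place in these 2 groups, of 18 RNA-seq libraries in all, with 3 independent cultures per group. L929 is an established line of mouse fibroblasts, and the labels give its genotype as WT. The AOA group received aminooxyacetic acid (AOA), a small molecule that blocks aminotransferases, at 0.5 mM. The HT-DNA+AOA group received the same AOA for 1 h and then herring testis DNA (HT-DNA) with a lipid transfection reagent at 0.5 μg/ml for 6 h. Both groups shared AOA and differed in HT-DNA. The AOA group is listed with 1 h of AOA, and its total time in AOA was not given in the sources used here. If that time differed between the groups, its effect and that of HT-DNA cannot be told apart. The other libraries were Mock (DMSO), HT-DNA without AOA, AOA with 20 mM aspartate (AOA+Asp), and HT-DNA with both (HT-DNA+AOA+Asp). The labels do not say whether groups without HT-DNA received the transfection reagent, and the effects of the DNA and of the reagent cannot be told apart. All cells came from 1 line, and the response to HT-DNA was read at 1 time, 6 h.

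Double-stranded DNA in the cytosol is bound by cGAS, which makes the second messenger cGAMP. cGAMP activates STING, STING recruits the kinase TBK1, and TBK1 phosphorylates the transcription factor IRF3, while NF-κB is activated in parallel. IRF3 switches on interferon-β and several chemokines directly, and secreted interferon then acts through its receptor on transcription factors that include STAT2 and IRF9, which bind interferon-stimulated response elements (ISREs) in the promoters of interferon-stimulated genes (ISGs). Fibroblasts make this response without help from immune cells, and aminotransferases, which AOA blocks, supply cells with aspartate for nucleotide synthesis.

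Libraries held 17901546 to 24057284 counts. Counts between replicates differed by more than counting error, with a chi-square per degree of freedom of 7.07 to 12.6 among the AOA libraries and of 17.3 to 63.6 among the HT-DNA+AOA libraries, the widest of any group. The largest value was that of HT-DNA+AOA libraries 1 and 3. In a principal component analysis of the 6 libraries, the first component (52.7% of the variance) separated the groups and the second (27.0%) spread the HT-DNA+AOA libraries, at 34.9, 1.10 and -22.9. Of 12 fibroblast markers, 9 were expressed well enough to be tested, among them Vim with 42936 to 66129 counts per library, while Thy1, Dcn and Lum did not pass the filter and Thy1 had at most 2 counts in any of the 6 libraries. Levels are given as CPM, which are counts scaled to the size of each library by the trimmed mean of M values (TMM). The summed level of the fibroblast markers was 5978 to 6516 CPM with AOA and 5112 to 6765 CPM with HT-DNA+AOA, a sum that abundant genes such as Vim dominate. Of the 9 tested, 4 fell (Pdgfrb, Pdgfra, Col1a2 and Col3a1) and none rose, with a median log2 fold change of -0.21. Markers of endothelial cells (4 genes) and of T and B lymphocytes (6 genes) did not pass the filter on low counts, nor did 5 of 8 macrophage and 5 of 6 epithelial markers. The summed level of the macrophage markers was 119.7 to 133.9 CPM with AOA and 139.7 to 156.7 CPM with HT-DNA+AOA. None of the 3 tested, Cd68, Lyz2 and Cd14, passed the test, and their part in the results was not tested.

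Promoter sequences are shown first, because the largest rises were ISGs and ISREs are letters that can be looked for. Each window holds 250 bases before and 50 bases from the start of a gene in RefSeq (GRCm38.p6), read 5′ to 3′ along the gene. Capitals mark an ISRE core, spelled GAAANNGAA or, on the other strand, TTCNNTTTC, and a κB-like motif, spelled GGANNTTCC or GGAANNTCC. The windows were those of Ifit1 (chr19:34640639-34640938, plus strand), Rsad2 (chr12:26456403-26456702, minus strand), Cxcl10 (chr5:92348840-92349139, minus strand) and Ddx60 (chr8:61927837-61928136, plus strand), which are 4 of the largest rises, and of Hbp1 (chr12:31950196-31950495, minus strand), the largest fall.
Ifit1: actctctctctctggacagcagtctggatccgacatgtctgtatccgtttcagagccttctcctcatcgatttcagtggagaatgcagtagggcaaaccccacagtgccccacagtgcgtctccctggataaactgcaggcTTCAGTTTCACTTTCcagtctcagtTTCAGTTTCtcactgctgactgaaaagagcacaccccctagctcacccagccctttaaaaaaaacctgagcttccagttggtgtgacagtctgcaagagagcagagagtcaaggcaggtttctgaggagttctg
Rsad2: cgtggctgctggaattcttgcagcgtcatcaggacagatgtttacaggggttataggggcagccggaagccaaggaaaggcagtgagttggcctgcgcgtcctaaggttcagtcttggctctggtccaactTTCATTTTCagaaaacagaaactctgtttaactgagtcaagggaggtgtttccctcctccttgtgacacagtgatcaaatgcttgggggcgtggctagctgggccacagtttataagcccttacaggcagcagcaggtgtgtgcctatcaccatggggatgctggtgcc
Cxcl10: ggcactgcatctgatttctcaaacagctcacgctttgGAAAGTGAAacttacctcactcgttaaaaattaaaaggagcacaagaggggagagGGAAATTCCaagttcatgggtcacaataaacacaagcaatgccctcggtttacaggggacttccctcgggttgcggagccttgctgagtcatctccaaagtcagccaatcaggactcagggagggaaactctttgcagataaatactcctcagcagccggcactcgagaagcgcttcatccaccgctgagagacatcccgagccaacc
Ddx60: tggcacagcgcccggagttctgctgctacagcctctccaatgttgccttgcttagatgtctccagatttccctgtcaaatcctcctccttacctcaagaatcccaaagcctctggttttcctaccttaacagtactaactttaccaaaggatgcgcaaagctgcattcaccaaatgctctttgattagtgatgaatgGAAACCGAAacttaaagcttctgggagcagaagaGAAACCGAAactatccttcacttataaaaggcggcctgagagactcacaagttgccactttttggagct
Hbp1: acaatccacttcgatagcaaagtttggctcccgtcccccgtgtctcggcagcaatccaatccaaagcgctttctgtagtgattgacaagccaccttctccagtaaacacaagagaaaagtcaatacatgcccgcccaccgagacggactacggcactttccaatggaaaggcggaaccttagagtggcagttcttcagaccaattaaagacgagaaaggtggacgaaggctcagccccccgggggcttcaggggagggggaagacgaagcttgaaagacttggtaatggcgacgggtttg
The Ifit1 window held 3 ISRE cores, of which the first bases were 109, 103 and 84 bases before the start and the first 2 overlapped. Rsad2 held 1, Ddx60 held 2, and Cxcl10 held 1 ISRE core and 1 κB-like motif. Neither motif was found in the Hbp1 window. Among the 15 largest rises, 12 genes had a window and 9 of these held an ISRE core, and among the 15 largest falls 15 had a window and 1 held one. Ccl5 and Zbp1 had no window. A gene is called changed, risen or fallen here at a Benjamini-Hochberg adjusted p-value under 0.05 from edgeR's quasi-likelihood test. Over all tested genes with a window, 8.49% (835 of 9840) held an ISRE core, against 38.1% (56 of 147) of the genes that rose by a log2 fold change of at least 1, 58.9% (33 of 56) of those that rose by at least 3, and 7.1% of the genes that fell. The κB-like motif was found in 5.6% of the tested genes with a window, 14.3% of those that rose by at least 1 and 4.34% of those that fell. These shares count a gene with a match in any of its windows. Of all 32851 RefSeq windows, each counted on its own, 8.56% held the ISRE core and 4.26% the κB-like motif. A match is a description of letters in this window and not a binding site.

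HT-DNA changed 1917 of 14263 tested genes in AOA-treated cells (13.4%), of which 922 rose (6.46% of the genes tested) and 995 fell (6.98%). The rises reached further than the falls. A log2 fold change of at least 1 was reached by 220 rises but only 44 falls, and of at least 3 by 79 rises and no fall. The 3 libraries of each group did not overlap, with HT-DNA+AOA higher, in 1384 genes (9.70% of those tested), and with HT-DNA+AOA lower in 1616 genes (11.3%). Genes of the interferon pathway made up a large part of the strong rises. The 7 lists that cover chemokines, antiviral effectors, GTPases, PYHIN genes, sensors, signalling and antigen presentation had 146 tested genes, of which 108 rose and 1 fell. They included 85 of the 220 genes that rose by a log2 fold change of at least 1 and 49 of the 79 that rose by at least 3, and none of the 44 genes that fell by at least 1. Some list genes passed the filter only through HT-DNA+AOA, where they were high, and could hardly be called other than higher. With at least 10 counts in every library, all 46 effectors, 2 chemokines and 2 GTPases left rose. Under the same filter, 6 of 7 PYHIN genes, 6 of 18 sensors and 7 of 20 antigen presentation genes rose. Of 17 signalling genes, 8 rose and 1 fell. The lists were chosen with earlier results of these data known.

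The number of changed genes depended on single libraries. It was 4157 without HT-DNA+AOA replicate 1, and 1196, 1078 and 1200 without AOA replicate 1, AOA replicate 2 and HT-DNA+AOA replicate 2. When only the 6 libraries were fitted it was 394, or 903 with the replicate number as a block, which was added after the data were seen.

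The type I interferons themselves were barely detected. Ifnb1 (ENSMUSG00000048806), which encodes interferon-β, had no count in the 3 AOA libraries and 6, 4 and 2 counts in the HT-DNA+AOA libraries, at least 4.32-fold higher when 0 counts are set at 3 counts over the group. It had no count in the Mock, HT-DNA and AOA+Asp libraries and 1 count in the HT-DNA+AOA+Asp libraries together. None of the 19 interferon genes listed passed the filter on low counts, and their summed level was at most 0.0429 CPM with AOA and 0.179 to 0.574 CPM with HT-DNA+AOA. At this depth a change of the interferon-α genes was not detectable.

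Chemokines that attract monocytes and T cells rose. All 7 tested of 10 listed chemokines rose, with a median log2 fold change of 7.02, where the median over all genes tested was -0.01. Ccl5 (ENSMUSG00000035042), a T cell attractant, went from 0.259, 0.0429 and 0 CPM with AOA to 113, 112 and 146 CPM with HT-DNA+AOA (log2 fold change 10.19, standard error 0.297, adjusted p = 1.21e-13). Cxcl10, the ligand of CXCR3 that IRF3 induces, was at 0.569, 0.300 and 0.349 CPM with AOA and at 279, 234 and 286 CPM with HT-DNA+AOA (log2 fold change 9.35, standard error 0.192). Every HT-DNA+AOA library was above every AOA library for both genes, and the HT-DNA+AOA libraries differed among themselves by less than a 1.5-fold change. Ccl4 had 2 counts over the AOA libraries and 491 over the HT-DNA+AOA libraries, a ratio of 265 with a 95% counting interval of 73.0 to 2195. Cxcl11, another CXCR3 ligand, had 1 count against 163, a ratio of 176 (31.2 to 6995). Of all stretches of 31 bases in its transcripts, 42.2% are also found in transcripts of another gene, so its reads may be misassigned. The monocyte attractant Ccl2 was already abundant with AOA, at 610, 590 and 697 CPM, and reached 1421, 1450 and 1602 CPM (log2 fold change 1.24, standard error 0.0877). Ccl7, another monocyte attractant, rose by a log2 fold change of 1.36. Genes that pass the filter only through HT-DNA+AOA could hardly be called other than higher, so the count rests best on genes with at least 10 counts in every library, where the 2 chemokines left both rose.

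**Figure D1:**
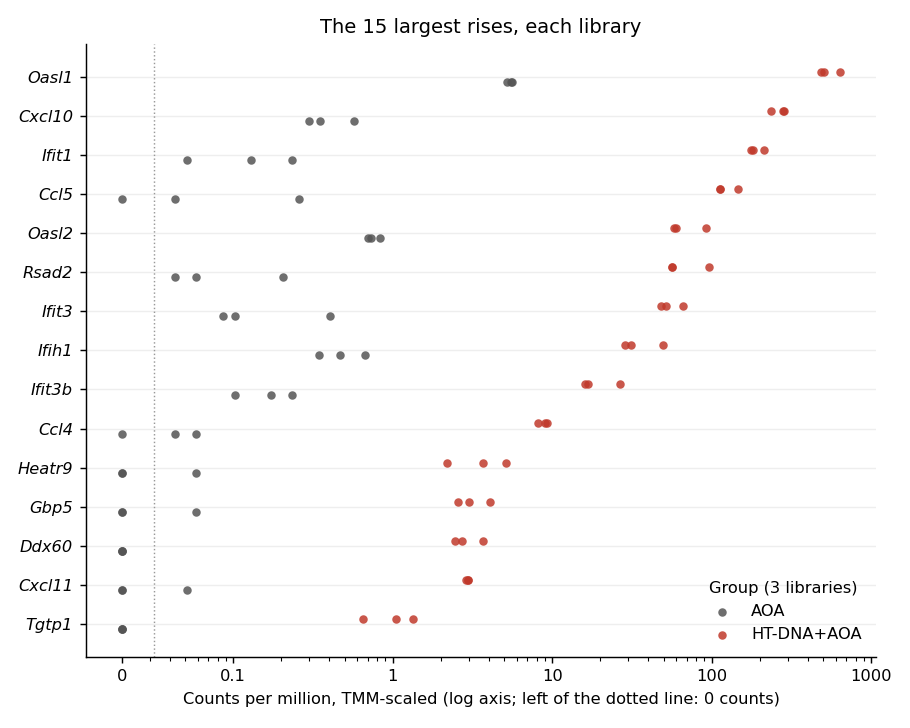
CPM on a log axis of the 15 genes with the largest rises, each point 1 library, grey for AOA and red for HT-DNA+AOA, with libraries of 0 counts left of the dotted line. The genes were chosen among those whose groups did not overlap, so the 3 HT-DNA+AOA libraries lie above the 3 AOA libraries by selection. Levels with HT-DNA+AOA run from Oasl1 at 486 to 641 CPM down to Tgtp1 at 0.655 to 1.33 CPM.

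Antiviral effectors rose as a whole. All 58 tested of 66 listed effectors rose, where 6.46% of all genes tested rose. Their median log2 fold change was 2.43, with a range of 0.25 (Tdrd7) to 10.42 (Ifit1). The libraries of both groups did not overlap in 57 of them, all but Tdrd7. Of all genes tested, 9.70% were higher with HT-DNA+AOA without overlap. The summed level of the list went from 1346 to 1387 CPM in the AOA libraries to 3751 to 4519 CPM in the HT-DNA+AOA libraries. With at least 10 counts required in every library, all 46 remaining effectors rose, and 47 of 58 rose when only the 6 libraries were fitted. Ifit1 (ENSMUSG00000034459), which binds viral RNA that lacks a host cap, was at 0.0517, 0.129 and 0.232 CPM with AOA and at 214, 177 and 182 CPM with HT-DNA+AOA (log2 fold change 10.42, standard error 0.194, adjusted p = 4.54e-18). Rsad2, which encodes viperin, an enzyme that makes a chain-terminating nucleotide, was at 0.207, 0.0429 and 0.0581 CPM and then at 96.6, 56.7 and 56.1 CPM (log2 fold change 9.36, standard error 0.332). HT-DNA+AOA library 1 was the highest of the 3 for both genes. Ifit3 rose by a log2 fold change of 8.18 and Ifit3b by 6.84, but they share 61.8% and 55.3% of such stretches with other genes, and reads could be split between them. Oasl1, of the oligoadenylate synthetase family, was the most abundant of the large rises, at 5.22, 5.53 and 5.58 CPM with AOA and 508, 486 and 641 CPM with HT-DNA+AOA (log2 fold change 6.64, standard error 0.121). Oasl2 went from 0.827, 0.729 and 0.697 CPM to 91.6, 58.1 and 60.2 CPM (log2 fold change 6.53), and HT-DNA+AOA library 1 was again the highest.

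Other effectors rose from no or little expression. Ddx60, a helicase of the RIG-I-like sensing pathway, had no count in the AOA libraries and 165 counts, or 3.71, 2.72 and 2.44 CPM, with HT-DNA+AOA, at least 59.4-fold higher. Mx1, a GTPase that blocks viral replication, had 2 counts against 106, a ratio of 57.2 (15.5 to 479). Heatr9, which no list held, had 1 count against 203, a ratio of 219 (38.9 to 8701). Ifit2 was at 6.72, 6.99 and 7.5 CPM with AOA and at 54.4, 30.0 and 31.6 CPM with HT-DNA+AOA (log2 fold change 2.45, standard error 0.200). Usp18, the protease that removes ISG15 from proteins and limits interferon receptor signalling, went from 1.40, 1.5 and 1.92 CPM to 43.9, 35.6 and 50.4 CPM (log2 fold change 4.76). Isg15, the ubiquitin-like protein it removes, rose by a log2 fold change of 6.00. Effectors at the low end still passed the test, among them Bst2, which tethers budding virus (0.45), and the RNA-editing enzyme Adar (0.75).

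Interferon-inducible GTPases, which attack vacuoles that hold pathogens, all rose (11 tested of 17 listed, median log2 fold change 5.07, or 4.81 with genes at 0 counts set at their bound). Most of them passed the filter only through the libraries in which they were high and could hardly be called other than higher. With at least 10 counts in every library 2 were left, and both rose. Their summed level was 6.68 to 8.07 CPM with AOA and 97.6 to 149.5 CPM with HT-DNA+AOA. Irgm1 was at 5.38, 4.89 and 4.01 CPM with AOA and at 76.0, 45.5 and 50.8 CPM with HT-DNA+AOA (log2 fold change 3.59, standard error 0.166, adjusted p = 6.12e-12). Igtp, which encodes Irgm3, went from 0.310, 0.386 and 0.465 CPM to 12.9, 8.36 and 10.7 CPM (log2 fold change 4.77). Gbp3 rose by a log2 fold change of 4.81 and Gbp5 from 1 count to 180 counts over the group, a ratio of 194 (34.5 to 7720). Tgtp1 had no count with AOA and 57 counts with HT-DNA+AOA, at least 20.5-fold higher, but shares 84.4% of its sequence in this sense with other genes. Levels were low in this list, and DESeq2 gave an adjusted p-value for only 6 of the 11, all 6 higher. PYHIN genes, a family that includes DNA sensors, rose in 8 of 9 tested cases (14 listed). Ifi204, the mouse counterpart of human IFI16, went from 58.4, 54.4 and 72.7 CPM to 152, 134 and 122 CPM (log2 fold change 1.14, standard error 0.115). Ifi203 rose by 0.91, and Ifi205 had 3 counts against 76, a ratio of 27.4 (9.01 to 136). Ifi203, Ifi204 and Ifi205 share 21.9%, 34.6% and 22.1% of their sequence with other genes. Aim2, which starts the inflammasome on DNA, was the member that did not pass the test, at 50.1, 36.1 and 41.4 CPM with AOA and 55.3, 39.9 and 26.3 CPM with HT-DNA+AOA (adjusted p = 0.857).

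Of 22 tested nucleic acid sensors and adaptors (23 listed), 9 rose and none fell, where 6.46% of all genes tested rose and 6.98% fell. The median log2 fold change of the list was 0.10. Ifih1, which encodes the RNA sensor MDA5, was at 0.672, 0.343 and 0.465 CPM with AOA and at 49.6, 31.3 and 28.6 CPM with HT-DNA+AOA (log2 fold change 6.22, standard error 0.263, adjusted p = 1.70e-12). Rigi, which encodes RIG-I, went from 8.38, 7.85 and 8.19 CPM to 111, 70.4 and 71.6 CPM (log2 fold change 3.37). Their relative Dhx58 rose by 3.53 and the endosomal RNA sensor Tlr3 by 3.08. Zbp1, which senses Z-form nucleic acid, was at 0.207, 0.386 and 0.174 CPM and then at 9.76, 8.93 and 9.71 CPM (log2 fold change 5.12, standard error 0.286). Cgas itself rose less, from 5.79, 5.71 and 6.45 CPM to 12.4, 11.2 and 8.40 CPM (log2 fold change 0.84, standard error 0.141, adjusted p = 0.000426). Sting1 was at 5.69, 5.53 and 5.87 CPM with AOA and 5.17, 5.18 and 5.54 CPM with HT-DNA+AOA (log2 fold change -0.10, adjusted p = 0.625). Tbk1 was at 37.0, 35 and 33.2 CPM and then at 39.4, 31.3 and 25.9 CPM (adjusted p = 0.516), and fell past the threshold without HT-DNA+AOA replicate 1 (log2 fold change -0.29). Trex1, the exonuclease that degrades cytosolic DNA, rose by 2.84, but shares 97.6% of its sequence with other genes.

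Of 19 tested genes of interferon signalling (20 listed), 8 rose and 1, the receptor chain Ifnar1, fell. Their median log2 fold change was 0.31, and of all genes tested 6.46% rose and 6.98% fell. Irf7, which amplifies interferon production, went from 2.43, 2.70 and 3.20 CPM to 26.0, 19.6 and 27.3 CPM (log2 fold change 3.13, standard error 0.153, adjusted p = 1.55e-11). Stat2 and Irf9, which bind ISREs together, rose by a log2 fold change of 2.54 and 2.12. Irf9 was at 16.8, 16.8 and 15.7 CPM with AOA and at 71.0, 67.5 and 75.7 CPM with HT-DNA+AOA. Irf1 rose by 2.14 and the feedback inhibitor Socs1 by 1.04. Irf3, which is activated by phosphorylation, was at 36.5, 40.8 and 41.0 CPM and then at 36.9, 41.4 and 47.9 CPM (adjusted p = 0.569). Ifnar1 fell from 46.1, 48.8 and 42.2 CPM to 36.7, 35.9 and 31.1 CPM (log2 fold change -0.40, standard error 0.0843). The calls of Socs1 and Ifnar1 were lost when only the 6 libraries were fitted.

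MHC class I molecules present peptides to T cells, and interferon induces many of their genes. Of 20 MHC class I genes, 7 rose and none fell, where 6.46% of all genes tested rose and 6.98% fell. Their median log2 fold change was 0.22. The peptide transporter Tap1 went from 37.9, 40.6 and 39.9 CPM to 66.5, 57.6 and 82.2 CPM (log2 fold change 0.80, standard error 0.111), and the immunoproteasome subunit Psmb8 rose by 0.55. The classical heavy chain H2-K1 was at 844, 936 and 905 CPM with AOA and 822, 940 and 1181 CPM with HT-DNA+AOA, so that its libraries overlapped (adjusted p = 0.421). Without HT-DNA+AOA replicate 1, the number of changed MHC class I genes was 13, and when only the 6 libraries were fitted it was 4. Of 18 tested NF-κB subunits and inhibitors (20 listed), 4 rose and none fell, and 8 changed without HT-DNA+AOA replicate 1. When only the 6 libraries were fitted, 1 rose. The inhibitors Nfkbia and Tnfaip3 rose by 0.64 and 0.84 and the regulator Nfkbiz by 0.41. Nfkbia was at 82.4, 77.5 and 82.8 CPM with AOA and at 112, 124 and 143 CPM with HT-DNA+AOA. The subunits Relb and Nfkb2 had log2 fold changes of 0.20 and 0.17 (adjusted p = 0.336 and 0.201). The calls of Psmb8, Tnfaip3 and Nfkbiz were lost when only the 6 libraries were fitted.

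Inflammatory cytokines and neutrophil chemokines rose in 11 of 17 tested genes (24 listed), where 6.46% of all genes tested rose. Their median log2 fold change was 0.58. Il6 went from 0.517, 0.300 and 0.755 CPM to 6.11, 6.51 and 7.21 CPM (log2 fold change 3.69, standard error 0.304, adjusted p = 4.80e-08). The alarmin Il33 rose from 0.620, 0.729 and 0.523 CPM to 7.46, 4.77 and 4.77 CPM (log2 fold change 3.16). The neutrophil attractants Cxcl1 and Cxcl2 were abundant before HT-DNA and rose by 0.80 and 0.95, Cxcl1 from 583, 440 and 577 CPM to 903, 889 and 997 CPM. Tnf was at 3.26, 3.05 and 2.90 CPM with AOA and 5.06, 3.75 and 4.95 CPM with HT-DNA+AOA (log2 fold change 0.58, adjusted p = 0.0606). Without AOA replicate 2 or 3, 6 or 7 genes of this list passed the test.

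The largest falls lay outside the 20 gene lists, which held none of the 44 genes that fell by a log2 fold change of at least 1. Hbp1 (ENSMUSG00000002996), a repressor that restrains cell cycle entry, fell from 37.4, 40.4 and 40.5 CPM with AOA to 11.9, 10.0 and 9.18 CPM with HT-DNA+AOA (log2 fold change -1.92, standard error 0.0942, adjusted p = 1.55e-11), and shares 25.4% of its sequence with other genes. Mnt, a partner of MAX that opposes MYC, fell from 20.7, 21.2 and 20.2 CPM to 6.26, 5.90 and 8.04 CPM (log2 fold change -1.62, standard error 0.120). Mxd4, of the same MAX network, fell by a log2 fold change of 1.17. Ccng2, a cyclin linked to growth arrest, was at 17.0, 18 and 16.7 CPM and then at 7.78, 6.41 and 5.36 CPM (log2 fold change -1.40). Pdcd4, which inhibits translation initiation, fell from 6.62, 9.05 and 8.43 CPM to 3.34, 2.41 and 2.50 CPM (log2 fold change -1.54, standard error 0.166). The nuclear receptor coregulator Pnrc1 went from 13.4, 13.7 and 15.6 CPM to 4.28, 4.51 and 4.83 CPM (log2 fold change -1.65, standard error 0.112). These genes were chosen among those whose groups did not overlap, so every HT-DNA+AOA library was below every AOA library by selection. Abca1, the cholesterol exporter, fell from 50.2, 43.3 and 47.0 CPM to 29.0, 21.8 and 15.4 CPM (log2 fold change -1.08), and the phosphatidate phosphatase Lpin1 from 6.31, 7.51 and 6.22 CPM to 2.82, 2.46 and 1.19 CPM (log2 fold change -1.61). Crebrf, which regulates the unfolded protein response, fell by a log2 fold change of 1.27. The others were Ubald1, Abtb1, Amt, Tcp11l2, Fbxl20 and Cep97, with log2 fold changes of -1.51 to -1.10. The calls of Amt and Tcp11l2 were lost when only the 6 libraries were fitted, and that of Amt also without HT-DNA+AOA replicate 2.

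**Figure D2:**
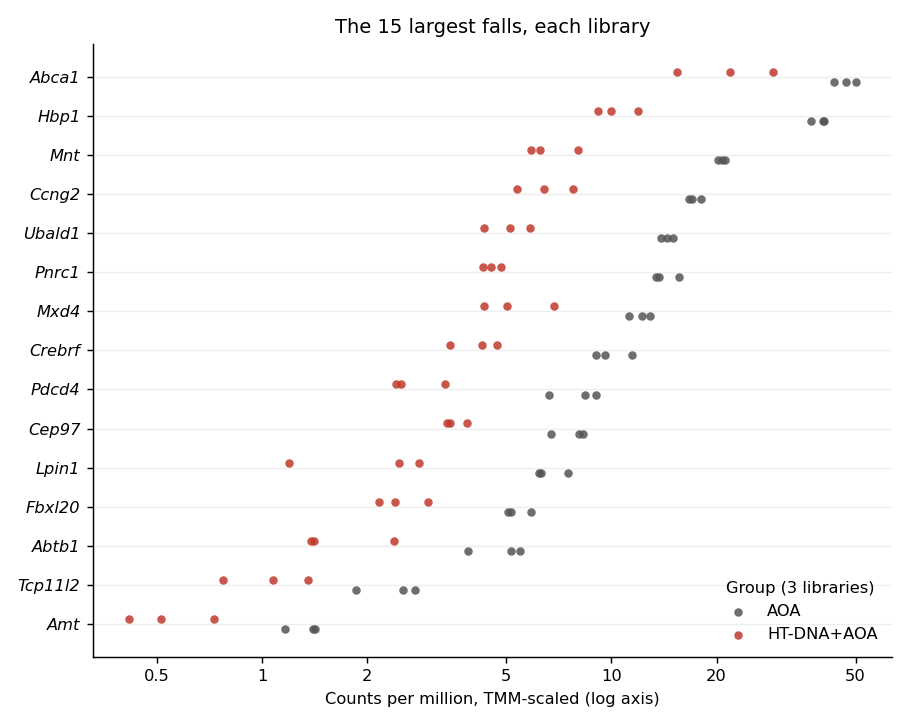
CPM on a log axis of the 15 genes with the largest falls, each point 1 library, grey for AOA and red for HT-DNA+AOA. The genes were chosen among those whose groups did not overlap, so the 3 HT-DNA+AOA libraries lie below the 3 AOA libraries by selection. The log2 fold change is -1.92 for Hbp1 and -1.08 for Abca1.

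AOA blocks aminotransferases, and cells answer a shortage of amino acids through the factor ATF4. Of 20 tested genes of transamination and aspartate metabolism (23 listed), 1 fell and none rose, no more than the 6.98% and 6.46% of all genes tested. That gene was Gpt2, an alanine aminotransferase of mitochondria (111, 106 and 99.0 CPM with AOA, 86.8, 91.7 and 89.5 CPM with HT-DNA+AOA, log2 fold change -0.24), and its call was lost without AOA replicate 1 or 2. The aspartate aminotransferases Got1 and Got2 had log2 fold changes of 0.12 and 0.00 (adjusted p = 0.271 and 0.993), and without HT-DNA+AOA replicate 1 or 3 the list had 2 changed genes. Of 31 tested genes that ATF4 induces when amino acids run short (32 listed), 2 rose and 2 fell. These shares were near the 6.46% and 6.98% of all genes tested. The number of changed genes was 10 and 7 without HT-DNA+AOA replicates 1 and 3, and 2 when only the 6 libraries were fitted. The growth and stress hormone Gdf15 went from 41.7, 45.2 and 45.7 CPM to 57.5, 70.5 and 83.6 CPM (log2 fold change 0.67), and the glutamine transporter Slc38a2 from 550, 510 and 481 CPM to 393, 327 and 273 CPM (log2 fold change -0.63), a call that was lost when only the 6 libraries were fitted. The defining members Asns, Chac1, Trib3 and Ddit3 had log2 fold changes of -0.10 to 0.07 and did not pass the test. Of 13 mitochondrially encoded mRNAs, 1 rose and none fell, near the 6.46% of all genes tested that rose. That gene was mt-Nd2 (0.23), and its call was lost without AOA replicate 1 or 2 or HT-DNA+AOA replicate 2. The number of changed mRNAs of this list was 2 without AOA replicate 3 and 3 without HT-DNA+AOA replicate 1.

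Immediate early factors, which cells switch on within minutes of a stimulus, rose in 9 and fell in 2 of 28 tested genes (29 listed). Of all genes tested, 6.46% rose and 6.98% fell. When only the 6 libraries were fitted, 5 of these factors passed the test. Egr1 went from 1.71, 1.07 and 0.755 CPM to 4.49, 3.39 and 4.11 CPM (log2 fold change 1.75, standard error 0.231, adjusted p = 3.09e-05), and Atf3 from 0.207, 0 and 0.174 CPM to 0.992, 0.923 and 0.596 CPM (log2 fold change 2.77). Fos and Jun did not pass the test (adjusted p = 0.790 and 0.704), and Fosl2 fell by a log2 fold change of 0.48. Of 18 tested cell death genes (20 listed), 7 rose and none fell. The kinase-like Mlkl, which executes necroptosis downstream of ZBP1, rose from 30.8, 31 and 29.0 CPM to 47.7, 47.7 and 41.7 CPM (log2 fold change 0.59, standard error 0.0768), and the inflammatory caspases Casp1 and Casp4 rose by 0.70 and 0.68. Casp8 was at 16.9, 15.9 and 13.6 CPM with AOA and 15.2, 12.9 and 9.12 CPM with HT-DNA+AOA (adjusted p = 0.138). Of 18 tested p53 targets (20 listed), 5 rose, led by the cell cycle inhibitor Cdkn1a (57.6, 57 and 60.0 CPM, then 78.9, 84.0 and 95.8 CPM, log2 fold change 0.57), while Mdm2 did not pass the test (-0.09). Without HT-DNA+AOA replicate 1, 12 cell death genes and 8 p53 targets changed. When only the 6 libraries were fitted, 2 cell death genes and 2 p53 targets rose. The calls of Atf3, Casp1 and Casp4 were lost when only the 6 libraries were fitted.

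Sterol and matrix genes changed by less than a log2 fold change of 1. Of 22 tested sterol genes (25 listed), 7 rose and none fell, where 6.46% of all genes tested rose and 6.98% fell. Without AOA replicate 2, 4 rose, and 1 rose when only the 6 libraries were fitted. Insig1, which retains the regulators of sterol synthesis in the endoplasmic reticulum, went from 37.8, 33.3 and 35 CPM to 50.6, 50.1 and 42.5 CPM (log2 fold change 0.44, standard error 0.0746), and its call was lost when only the 6 libraries were fitted. The synthesis enzymes Hmgcs1 and Sqle had log2 fold changes of -0.14 and -0.06 and did not pass the test. Of 16 tested matrix genes (26 listed), 6 fell and 1 rose. Without AOA replicate 2, 3 fell, and 1 fell when only the 6 libraries were fitted. Col1a2 fell from 78.9, 81.0 and 80.2 CPM to 56.7, 59.6 and 59.6 CPM (log2 fold change -0.45, standard error 0.0591), and the fibroblast marker Pdgfrb fell by a log2 fold change of 0.86. Of 36 cell cycle genes, 2 rose and 3 fell, near the 6.46% and 6.98% of all genes tested. Ccne2 (0.78) was among the rises and E2f2 (-0.90) among the falls. Without HT-DNA+AOA replicates 1 and 3, 12 and 13 cell cycle genes changed, and 2 changed when only the 6 libraries were fitted. Of 11 tested heat shock and metal-response genes (12 listed), 3 rose and 2 fell, with Hmox1 at 0.50 and Bag3 at -0.36. When only the 6 libraries were fitted, 1 rose and none fell, and with the replicate block added 2 rose and none fell. In the fit of all libraries, 3 changed without AOA replicate 1, AOA replicate 2 or HT-DNA+AOA replicate 2.

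**Figure D3:**
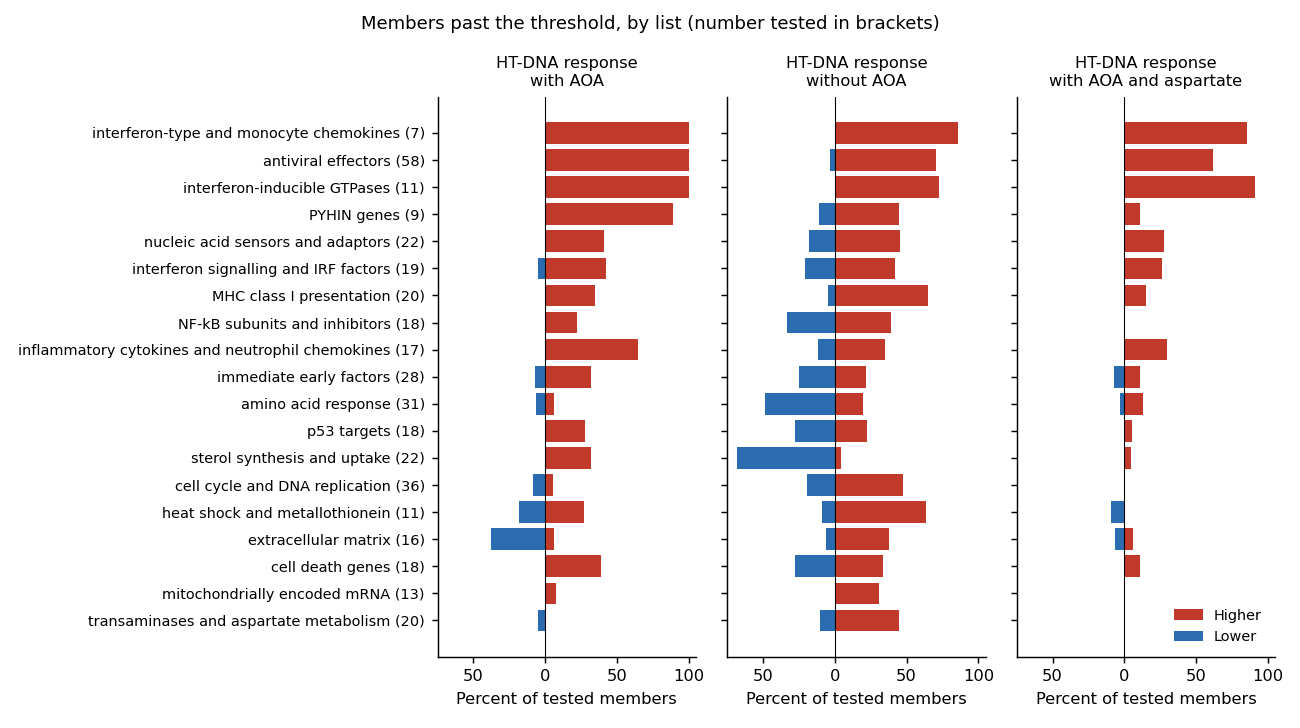
Percent of the tested members of 19 gene lists that passed the test, red to the right for higher and blue to the left for lower, in the response with AOA, without AOA and with AOA and aspartate, with the number tested in brackets. With AOA the 58 antiviral effectors, 11 GTPases and 7 chemokines were all higher, and without AOA 15 of 22 sterol genes were lower.

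To ask whether AOA-treated cells answered HT-DNA differently, the response was set beside that of cells without AOA (HT-DNA compared with Mock), which used no library of the first. Without AOA, 6879 genes changed, 3454 higher (24.2%) and 3425 lower (24.0%), and the median size of a log2 fold change over all genes was 0.34, against 0.17 with AOA. With library totals in place of TMM scaling, the split without AOA was 2408 higher and 4433 lower, and the median over all genes moved to -0.12. Of the 922 genes that rose with AOA, 527 (57.2%) also rose without it, which is 15.3% of the 3454, and 55 fell. For 280 (30.4%) of them the rise was significantly larger with AOA, and for 31 it was significantly smaller. Of the 995 that fell, 600 (60.3%) also fell without AOA (17.5% of the 3425) and 50 rose. For 190 (19.1%) the fall was significantly larger with AOA, and for 39 it was significantly smaller. These genes were picked by the response with AOA, which is part of the tested difference, and this favours a larger change with AOA. Across all 14263 genes, which are not independent replicates, the log2 fold changes had a Pearson correlation of 0.47 and a Spearman correlation of 0.42.

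The difference of the responses was itself significant for 2209 genes, 1031 with a higher (7.23%) and 1178 with a lower (8.26%) log2 fold change with AOA than without. With library totals, this split was 1388 higher and 765 lower. The count was 1282, 1422, 1145, 1256, 1255 and 1399 without Mock replicate 1, Mock replicate 2, AOA replicate 2, HT-DNA replicate 1, HT-DNA replicate 3 and HT-DNA+AOA replicate 2, and 5420 without HT-DNA+AOA replicate 3. Of 58 antiviral effectors, 44 rose more with AOA and none less, with a median difference of 1.64 on the log2 scale, where all genes had 0.01. Of the 146 genes of the 7 interferon lists, 71 rose more with AOA.

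Ifit2 did not pass the test without AOA and rose with it, and the difference was significant. It was at a mean of 17.6 CPM in Mock and 17.4 CPM with HT-DNA, against 7.07 CPM with AOA and 38.6 CPM with HT-DNA+AOA (difference 2.47, standard error 0.273, adjusted p = 1.84e-05). Among genes with a symbol and at least 1 CPM in the highest of the 4 groups, predicted genes left out, the largest difference was that of Ifi44, at 0.764 CPM in Mock, 1.35 CPM with HT-DNA, 0.962 CPM with AOA and 21.9 CPM with HT-DNA+AOA (difference 3.69, adjusted p = 2.98e-05). Igtp, Iigp1, Irgm2, Parp14, Mx2, Rsad2, Ccrl2, Trim30d and Phf11d followed under the same limits, with differences of 2.94 to 3.54. The call of the difference was lost for Rsad2 when only the libraries compared were fitted or without Mock replicate 1 or 2, AOA replicate 2 or 3, or HT-DNA replicate 1 or 3. It was lost for Mx2 in that fit or without Mock replicate 2 or 3, and for Trim30d without Mock replicate 1 or AOA replicate 2. Irf7, Irf9 and Usp18 differed by 2.13, 1.41 and 2.48, and the sensors Rigi and Ifih1 by 2.11 and 2.61. Of 17 inflammatory genes, 6 had a higher and 1 a lower response with AOA, among the former Cxcl2 (9.54 CPM in Mock, 7.62 CPM with HT-DNA, 71.0 CPM with AOA, 138 CPM with HT-DNA+AOA, difference 1.28) and Cxcl1 (0.89).

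For other genes no difference was detected, which does not show that they responded alike. None of the 7 chemokines passed the test of the difference in either direction. Ccl4, Ccl5 and Cxcl11 had no count in Mock, so their response without AOA had no measured baseline and a difference could hardly be called. With HT-DNA, mean levels without and with AOA were 25.5 and 124 CPM for Ccl5, 2.55 and 8.86 CPM for Ccl4, and 0.112 and 2.94 CPM for Cxcl11. Oasl1 rose by 6.2 without AOA and 6.64 with it (difference 0.45, adjusted p = 0.0818). Cxcl10 rose by 8.33 without AOA and 9.35 with it (difference 1.02, adjusted p = 0.388), although its level with HT-DNA was 30.8 CPM without AOA and 266 CPM with it. Both AOA and Mock levels of Cxcl10 were under 1 CPM (0.406 and 0.0916 CPM), where a difference is hard to detect at this depth. Ccl2 rose by 1.07 and 1.24 (adjusted p of the difference 0.368), from 235 CPM in Mock and 632 CPM with AOA. Zbp1 rose by 4.97 and 5.12 (adjusted p of the difference 0.966). Its level with AOA was also under 1 CPM, where a difference is hard to detect.

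**Figure D4:**
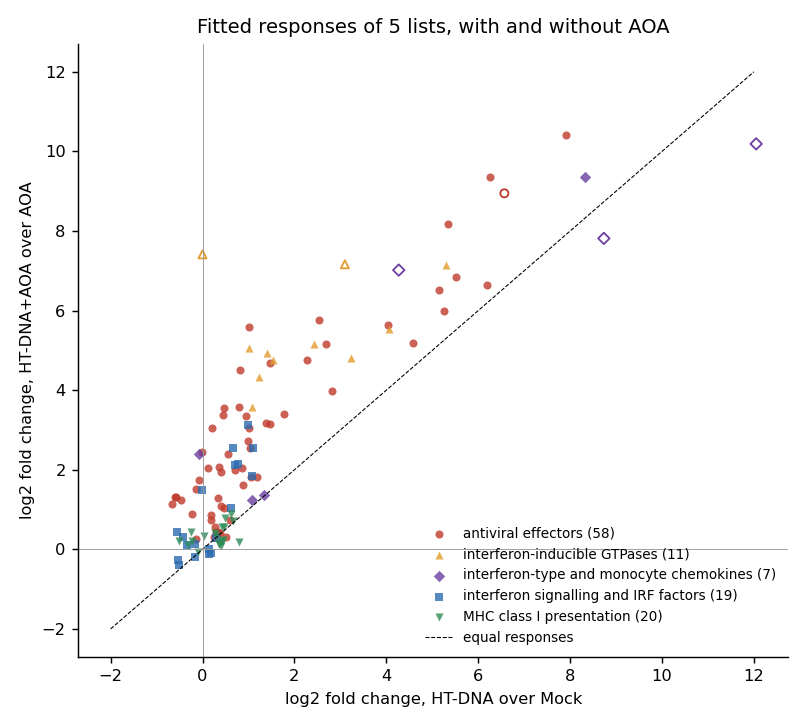
Fitted log2 fold change of HT-DNA+AOA over AOA against that of HT-DNA over Mock for the members of 5 lists, each point 1 gene, with open points for genes that had no count in the Mock, AOA or HT-DNA group, whose fitted values are no bounds, and the dashed line at equal responses. Most antiviral effectors lie above the line (44 of 58 with a significant difference), and MHC class I genes lie near the origin.

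Groups outside the interferon pathway differed too. Over all genes tested, 24.2% rose and 24.0% fell without AOA, and 7.23% had a higher and 8.26% a lower response with AOA. The falls of cell cycle genes and the rises of amino acid response genes without AOA, given next, were below these shares. Of 22 sterol genes, 15 fell and 1 rose with HT-DNA without AOA, and 13 had a higher response with AOA, with Insig1 at 182 CPM in Mock, 115 CPM with HT-DNA, 35.4 CPM with AOA and 47.7 CPM with HT-DNA+AOA (difference 1.10, adjusted p = 4.25e-06). Of 36 cell cycle genes, 17 rose and 7 fell without AOA, and 11 had a lower response with AOA, such as Ccnd1 (611 CPM in Mock, 973 CPM with HT-DNA, 635 CPM with AOA, 691 CPM with HT-DNA+AOA, difference -0.55). Of 31 amino acid response genes, 6 rose and 15 fell without AOA, and 10 had a higher and 2 a lower response with AOA. The largest lower response was that of Id3, an inhibitor of differentiation factors, at 5.62 CPM in Mock, 17.6 CPM with HT-DNA, 29.2 CPM with AOA and 20.2 CPM with HT-DNA+AOA (difference -2.18, adjusted p = 1.43e-05). Mnt fell with AOA, but was at 21.6 and 19.1 CPM without it (difference -1.44, adjusted p = 1.84e-05). Hbp1 fell in both, by a log2 fold change of 1.82 without AOA (difference -0.11, adjusted p = 0.584).

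With aspartate added to AOA, the response to HT-DNA held 492 genes in the fit of all libraries, of which 275 rose (1.93%) and 217 fell (1.52%). This count was 285, 232, 275, 259 and 277 without AOA+Asp replicates 1 and 3 and HT-DNA+AOA+Asp replicates 1, 2 and 3, and 1896 when only its 6 libraries were fitted. The order of the counts depended on the fit, since the response without aspartate held 1917 genes in the fit of all libraries but 394 when only its own 6 were fitted, or 903 with the replicate block. Of the 922 rises without aspartate, 199 (21.6%) were also called with it, which is 72.4% of the 275, and of the 995 falls 140 (14.1%, and 64.5% of the 217), and no gene was called in opposite directions. For 106 of the rises (11.5%) and 36 of the falls (3.62%) the change was significantly larger without aspartate, and for none significantly smaller. These genes, too, were picked by a response that is part of the tested difference, which favours a larger change without aspartate. The log2 fold changes had a Pearson correlation of 0.51 and a Spearman correlation of 0.41 across genes.

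The test of the difference between both responses found 150 genes, 112 with a higher (0.785%) and 38 with a lower (0.266%) log2 fold change without aspartate. It found 370 and 416 without HT-DNA+AOA replicates 1 and 3, and 69 to 98 without AOA replicate 1 or 2, AOA+Asp replicate 1 or 2, HT-DNA+AOA replicate 2 or any HT-DNA+AOA+Asp replicate. Of the 112, 41 belonged to the 7 interferon lists, and 23 of 58 antiviral effectors were among them. Irf7 was at 3.87 CPM with HT-DNA+AOA+Asp and 24.3 CPM with HT-DNA+AOA, and its response was 2.42 larger on the log2 scale (adjusted p = 1.91e-05). Irf1 (1.54), Stat2 (1.48) and Irf9 (1.19) also responded more without aspartate, as did Ifit2 (1.82) and Irgm1 (1.85). None of the 7 chemokines passed this test, with Cxcl10 rising by 9.35 without and 9.52 with aspartate (adjusted p = 0.957). The mean level of Cxcl10 was 0.0281 CPM with AOA+Asp and 26.7 CPM with HT-DNA+AOA+Asp. Without aspartate it was 0.406 CPM with AOA and 266 CPM with HT-DNA+AOA. Ccl4 and Cxcl11 had no count in the AOA+Asp libraries. From such low levels a difference is hard to detect at this depth. The largest fall, Hbp1, was weaker with aspartate (-1.03, difference -0.89, adjusted p = 0.000726), and so was that of Mnt (-0.40, difference -1.22, adjusted p = 0.000379).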

How the data were processed

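RNA of L929 cells was extracted with TRIzol and sequenced, with 3 cultures in each of 6 groups. The authors deposited an estimated count per gene for each of 18 libraries, with no scaling between libraries. Of these values 11.56% were not whole, and they were rounded for the tests. The aligner, counting tool and genome build were not given in the sources used here. The authors' group means in the same table matched the mean of the libraries within 3.3e-05 and were not used.

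Low genes were dropped by filterByExpr of edgeR at a count of 10 and a total of 15, which left 14263 of 57180, 74 of them with no symbol. All 18 libraries were fitted with edgeR 4.0.16 (R 4.3.3, TMM scaling, robust quasi-likelihood test, 12 residual degrees of freedom), and the responses and their differences were contrasts of this fit. A count of 0 was set at 3 counts over the 3 libraries of a group for a bound, and groups with 1 to 3 counts were compared by a ratio with a 95% exact binomial interval, which covers counting error only. The fit was tested on simulated data. Sequence shared between genes was the share of stretches of 31 bases in GENCODE transcripts that another gene also holds, and promoter windows came from RefSeq.

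The genes named were the key genes of 20 lists with each list's largest called rise and fall, the 15 largest rises and falls of at least 1 CPM whose groups did not overlap, the 10 largest differences each way between the responses with and without AOA (at least 1 CPM in the highest of the 4 groups), and Ifnb1. Genes without a symbol and predicted genes were left out of the rises, falls and differences. Other members named from the lists were chosen after their values were seen. The members and lists were chosen with earlier results of these data known. The deviations of same-numbered AOA and HT-DNA+AOA libraries from their group means correlated at 0.42, 0.11 and 0.21, a hint of pairing from the data and not from the labels. HT-DNA+AOA library 3 and AOA library 2 correlated at 0.19, and same-numbered libraries of the other responses at -0.18 to 0.08. The main fit did not pair samples, and the numbers entered only the alternatives with a replicate block. Alternatives were another scaling, other filters, a replicate block, only the libraries compared, DESeq2 1.42.0, a minimum fold change and leaving out each library. Results of some key genes are not reported here.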

Additional observations from a re-analysis of the deposited data

Results flagged for a closer look

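The responses to HT-DNA with and without AOA differed, by the test of the difference itself, in 2209 genes, and those with AOA alone and with AOA and aspartate in 150 genes. Among genes with a symbol and at least 1 CPM in the highest of the 4 groups, predicted genes left out, the largest higher responses with AOA than without, as differences of log2 fold changes, were those of Ifi44 (3.69), Iigp1 (3.54), Igtp (3.23), Parp14 (3.23), Ccrl2 (3.22), Mx2 (3.21), Rsad2 (3.10), Trim30d (3.09), Irgm2 (3.08) and Phf11d (2.94). Under the same limits, the largest lower responses were those of Id3 (-2.18), Nacad (-1.93), H2ac8 (-1.83), Atoh8 (-1.71), Hspb7 (-1.58), Klk10 (-1.55), Carns1 (-1.54), Aoc3 (-1.50), Mnt (-1.44) and Lgr6 (-1.26). The call of the difference was lost under 11 alternatives for Aoc3, 7 for Rsad2, 5 for Nacad, 3 for H2ac8, 3 for Mx2 and 2 for Trim30d. In Hspb7 the mean level was 2.81 CPM in Mock, 6.93 CPM with HT-DNA, 7.07 CPM with AOA and 5.82 CPM with HT-DNA+AOA. In Klk10 it was 2.75, 7.89, 5.10 and 4.97 CPM in the same order, so the HT-DNA+AOA and AOA libraries of both genes lay near each other and the difference came with a rise in cells without AOA.

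Some genes were too low to be tested but had no count in the AOA libraries and more than 3 counts over the HT-DNA+AOA libraries. These were Ifnb1 (12 counts over the group), Ifi208 (11), Gbp4 (10), Ifit1bl1 (7), Ifi214 (7) and Cmpk2 (4), among the members of the gene lists.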

How the results depend on the processing

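Of 162 values of named genes, 102 kept their call under every alternative run, 60 lost or gained it under at least 1, and none reversed. Fitting only the libraries compared gave 394 changed genes with AOA, 1896 with aspartate, 1019 for the difference with and without AOA and 66 for the difference with aspartate, and 25 named values lost their call. With the replicate block added to that fit, a choice made after seeing the data, 903 genes changed with AOA. In the fit of all libraries, the replicate block gave 1985 genes against 1917 and changed no call of a named gene. A minimum log2 fold change of 1 left 264, 623 and 103 genes with AOA, without AOA and with aspartate, and 286 and 54 for the 2 differences. For the difference with aspartate, no filter on low counts gave 303 genes and DESeq2 322. Leaving out 1 library gave 1078 to 4157 genes with AOA, 5442 to 6663 without AOA, 232 to 418 with aspartate, 1145 to 5420 for the difference with and without AOA and 69 to 416 for that with aspartate. The cause was not tested. DESeq2 gave no adjusted p-value to 830 genes in the response with AOA, 35 of them called by edgeR, and with library totals the median of all genes moved to -0.12 without AOA. Changes of genes with few counts, such as the interferons, were limited by depth.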
